A study of Homo sapiens with 6 samples.

Results

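The genes described here belong to the machinery that shows peptides, lipids and stress ligands to lymphocytes and natural killer (NK) cells. A list of 38 gene symbols was taken from the series' table of 62700 gene rows: 5 class I heavy chains, their light chain, transport and loading factors, immunoproteasome subunits, trimming enzymes, the class I and class II transactivators, class II genes, CD1D and MR1, and ligands of the activating receptor NKG2D. Each symbol stood on 1 row. RNA was sequenced from A673 cells, a human cell line derived from an Ewing sarcoma, a tumour of bone and soft tissue. The 3 knockout libraries came from A673 cells labelled EWS-FLI1 knockout, and the 3 parental libraries from A673 cells labelled parental control, with EWS-FLI1 wild type. EWS-FLI1 is the fusion of EWSR1 with FLI1, an ETS family transcription factor, and drives this tumour.

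Both genotypes were grown in the same medium with fetal bovine serum, and no cytokine or other agent is labelled. How the knockout was made, how long after it the RNA was taken and whether the cells were a single clone or a pool is not given in the labels. Nor do the labels say that the 3 libraries of a genotype came from separate cultures, and p-values here rest on a spread among libraries that could be purely technical. In bulk RNA, a larger share of expressing cells and more RNA per cell cannot be told apart.

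Class I molecules consist of a polymorphic heavy chain and beta-2-microglobulin. Proteasomes cut proteins into peptides, the TAP transporter carries these into the endoplasmic reticulum, ERAP enzymes trim them, and tapasin and its relatives load them, after which CD8 T cells can read the complex at the surface. NK cells are held back by class I molecules and are activated by NKG2D ligands, which many transformed cells carry. Interferon-gamma raises most class I pathway genes through IRF1 and NLRC5, and class II genes through CIITA. Ewing sarcomas are known for low class I levels on many tumours.

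Promoters are shown for 4 class I pathway genes that were higher in the knockout and for ULBP1 and ULBP2, neighbouring NKG2D ligand genes with different values. Each sequence covers 250 bases before to 50 bases after the annotated start (RefSeq, GRCh38.p14), and capitals mark every match, on either strand, to the motifs described after them.
HLA-B, chr6:31357130-31357429, minus strand: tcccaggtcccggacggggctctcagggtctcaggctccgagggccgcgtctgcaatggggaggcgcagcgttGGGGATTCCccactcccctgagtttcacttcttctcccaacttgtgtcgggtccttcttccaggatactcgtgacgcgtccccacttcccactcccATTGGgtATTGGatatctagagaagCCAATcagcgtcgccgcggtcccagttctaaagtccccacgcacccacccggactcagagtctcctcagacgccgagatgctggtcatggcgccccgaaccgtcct
B2M, chr15:44711267-44711566, plus strand: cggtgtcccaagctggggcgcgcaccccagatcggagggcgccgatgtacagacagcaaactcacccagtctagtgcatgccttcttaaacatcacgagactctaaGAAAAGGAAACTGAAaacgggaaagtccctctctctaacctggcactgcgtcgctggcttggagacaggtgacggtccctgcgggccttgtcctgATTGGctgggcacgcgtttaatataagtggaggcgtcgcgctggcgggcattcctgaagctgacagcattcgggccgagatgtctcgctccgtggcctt
TAP1, chr6:32853655-32853954, minus strand: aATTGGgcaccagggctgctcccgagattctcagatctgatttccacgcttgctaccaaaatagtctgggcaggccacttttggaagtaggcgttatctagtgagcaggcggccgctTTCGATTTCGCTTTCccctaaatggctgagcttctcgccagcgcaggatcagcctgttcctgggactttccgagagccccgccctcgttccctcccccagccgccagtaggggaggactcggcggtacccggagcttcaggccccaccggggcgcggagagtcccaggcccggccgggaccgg
TAPBP, chr6:33314029-33314328, minus strand: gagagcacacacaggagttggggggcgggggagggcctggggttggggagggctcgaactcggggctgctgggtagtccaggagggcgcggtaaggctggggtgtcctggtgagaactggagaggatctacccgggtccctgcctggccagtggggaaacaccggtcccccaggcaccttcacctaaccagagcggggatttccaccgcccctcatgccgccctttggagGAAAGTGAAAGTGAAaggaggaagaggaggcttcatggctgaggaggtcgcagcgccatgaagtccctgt
ULBP1, chr6:149963693-149963992, plus strand: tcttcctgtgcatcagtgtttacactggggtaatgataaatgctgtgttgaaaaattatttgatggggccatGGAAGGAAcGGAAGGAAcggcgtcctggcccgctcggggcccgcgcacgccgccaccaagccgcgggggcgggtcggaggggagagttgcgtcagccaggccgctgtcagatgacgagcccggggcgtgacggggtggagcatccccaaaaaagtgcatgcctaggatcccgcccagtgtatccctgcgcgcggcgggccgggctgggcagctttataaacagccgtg
ULBP2, chr6:149941764-149942063, plus strand: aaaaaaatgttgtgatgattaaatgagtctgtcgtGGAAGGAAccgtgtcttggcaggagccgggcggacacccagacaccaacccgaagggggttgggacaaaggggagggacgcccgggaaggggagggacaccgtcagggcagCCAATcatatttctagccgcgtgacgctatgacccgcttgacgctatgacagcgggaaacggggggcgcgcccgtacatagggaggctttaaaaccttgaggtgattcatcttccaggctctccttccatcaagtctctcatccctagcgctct

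Of the 38 genes, 34 had an entry in this promoter table, and CIITA, NLRC5, HLA-E and HLA-DRA had none. The ISRE-like motif GAAANNGAA, the half-site pair read by interferon regulatory factors, was found in 16 of the 34 genes and 9.86% of all 27305 genes. Among the sequences shown, B2M, TAP1 and TAPBP each held a pair of overlapping matches, in TAP1 on the opposite strand. The GAS-like motif TTCNNNGAA, known from interferon-gamma responses, was found in 4 of the 34 genes and 9.38% of all 27305 genes. The CCAAT motif ATTGG, read by NF-Y, was found in 23 of the 34 genes and 39.7% of all 27305 genes, with 3 matches in HLA-B. The NF-kB motif GGGGATTCC of the class I enhancer was found in HLA-B alone among the 34 genes and in 0.355% of all genes. The cyclic AMP response motif TGACGTCA was found in 0 of the 34 genes and in 2.25% of all genes. The ETS repeat GGAAGGAA, the motif class to which EWS-FLI1 binds, was found in 3 of the 34 genes and 4.50% of all 27305 genes. ULBP1 held this repeat in 2 copies and ULBP2 in 1 copy, and HLA-DMB was the other of the 3. Genes with several annotated starts were counted once. A match is a run of letters and not a measured binding site.

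The libraries held between 301605666 and 310465330 estimated counts in the knockout and between 324069161 and 342624492 in the parental cells. Levels are given in CPM, counts scaled to library size with TMM factors; they are not divided by transcript length, so levels of different genes are not compared. EWSR1 measured 245 ± 6.21 CPM in knockout and 293 ± 6.20 CPM in parental cells, and FLI1 measured 53.1 ± 2.11 CPM in knockout and 40.7 ± 1.15 CPM in parental cells (SD, n = 3 each). Gene rows do not separate reads of the fusion from those of the unfused alleles, so neither row checks the knockout label. The 6 Ewing sarcoma markers, several of them known EWS-FLI1 targets, all fell in the knockout, among them PRKCB, NR0B1 and LIPI with log2 fold changes of -6.83, -6.41 and -6.77, and STEAP1, NKX2-2 and CD99 with -3.16, -2.67 and -1.83.

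After a filter on low counts, 28485 genes were tested with edgeR's quasi-likelihood test, with Benjamini-Hochberg adjustment over all of them at 0.05. The filter kept 37 of the 38 genes and left out HLA-DRA. Of these 37, 26 were higher in the knockout and 7 lower, and 4 did not pass the test. Over the whole table, 73.8% of tested genes were called in either direction, 36.3% higher and 37.5% lower. A log2 fold change over 1 with a higher call was found for 22 of the 37, against 21.8% of all tested genes. Knockout and parental libraries did not overlap for 35 of the 37, against 76.7% of all tested genes. The median log2 fold change was 1.97 for the 37 genes and -0.06 for all tested genes. Scaling by total count alone shifted the median of all genes by -0.42 and gave 7370 higher and 14949 lower calls, against 10328 and 10687 with TMM. Upper quartile scaling shifted it by -0.20, with 8702 higher and 12780 lower. The median of the 37 genes was then 1.56 with total count and 1.77 with upper quartile scaling, while that of all genes was -0.48 and -0.26.

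**Figure D1:**
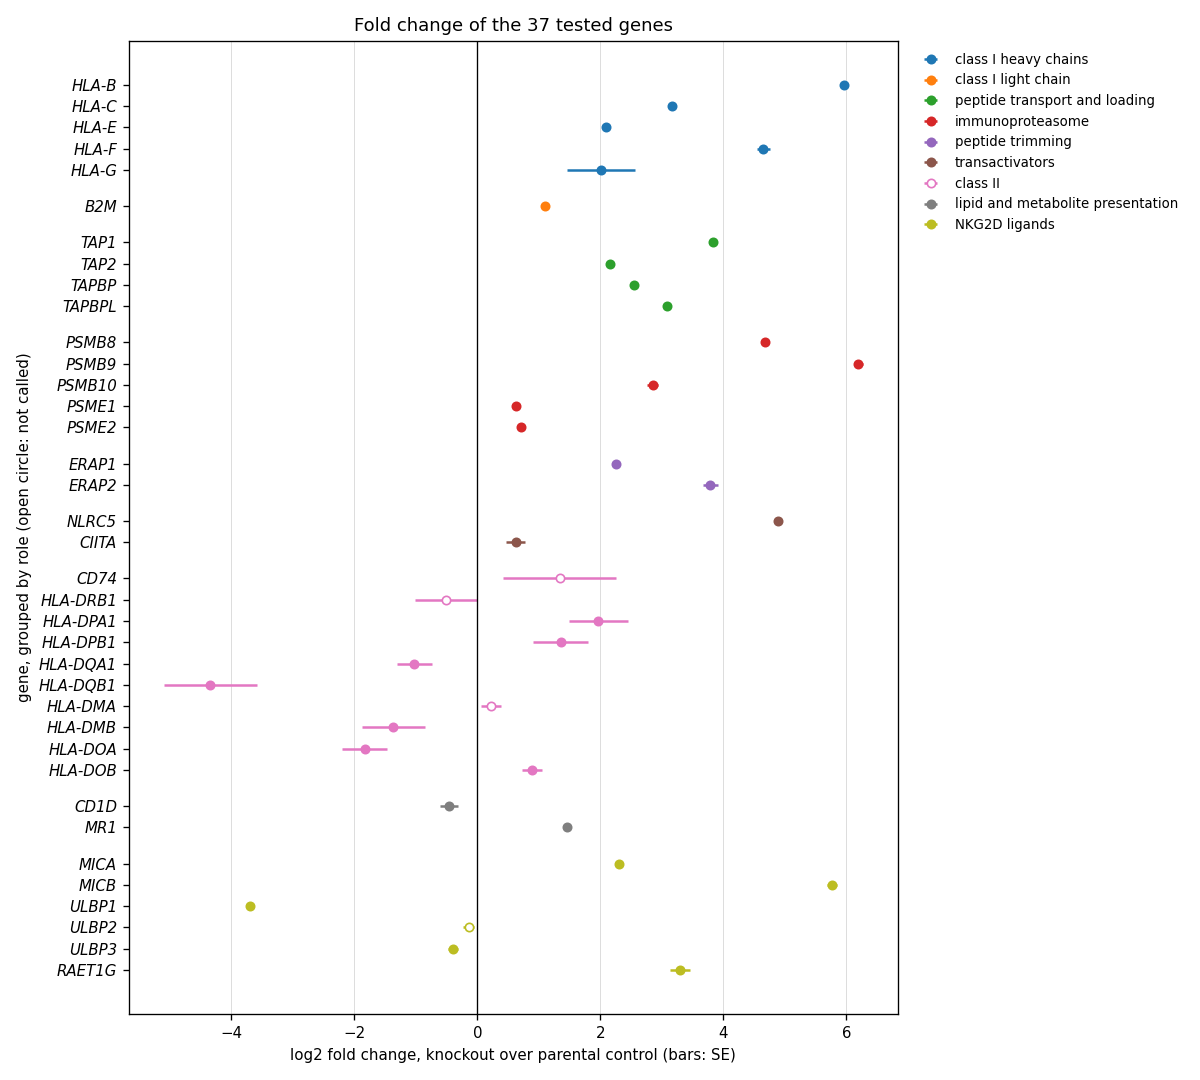
Log2 fold change of knockout over parental control for the 37 tested genes, grouped by role, with the SE as bars, from 3 libraries per genotype; open circles did not pass the test. Class I pathway genes all lie right of 0, while class II genes and NKG2D ligands lie on both sides.

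All 5 class I heavy chain genes were higher in the knockout. HLA-B, a classical heavy chain that presents peptides to CD8 T cells, had 2330.3, 2404 and 2266 CPM in the knockout libraries, against 39.9, 36.4 and 36.7 CPM in the parental libraries. The groups were far apart, with a 62-fold difference and a log2 change of 5.95 (SE 0.062, adjusted p = 2.27e-26). HLA-C, a classical heavy chain that is also the main ligand of killer immunoglobulin-like receptors on NK cells, had 1461, 1485 and 1391 CPM in the knockout libraries, against 172, 154 and 157 CPM in the parental libraries. Every knockout library was above every parental library, with a log2 change of 3.17 (SE 0.056, adjusted p = 1.94e-22). HLA-E presents leader peptides of other class I chains to the inhibitory receptor NKG2A, and it had 257, 259 and 249 CPM in the knockout libraries, against 61.9, 58.7 and 59 CPM in the parental libraries. Its rise was 4.26-fold, with a log2 change of 2.09 (SE 0.049, adjusted p = 3.57e-20). HLA-F, a non-classical chain, had 10.9, 12.6 and 11.3 CPM in the knockout libraries, against 0.512, 0.385 and 0.488 CPM in the parental libraries, so that it stood below 1 CPM in the parental cells only. It gave a log2 change of 4.65 (SE 0.10, adjusted p = 9.54e-20). HLA-F-AS1 lies antisense to 12.3% of its exon bases and averaged 0.244 CPM in knockout and 0.0564 CPM in parental cells. HLA-G, the non-classical chain known from the placenta, was near the floor, with 10, 22.1 and 10 estimated counts in the knockout libraries, against 7.03, 3.02 and 5.03 in the parental libraries. Its log2 fold change of 2.01 had an SE of 0.55 (adjusted p = 0.00254). B2M, the light chain shared by all of these molecules, had 1488, 1512 and 1423 CPM in the knockout libraries, against 666, 711 and 685 CPM in the parental libraries. It rose 2.14-fold, with a log2 change of 1.10 (SE 0.049, adjusted p = 4.38e-15), or 0.68 with total count scaling.

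Heavy chain genes are near-identical in part and share reads, which kallisto splits by likelihood. The sum over the 5 genes does not depend on the split among them, but it and the shares within it can depend on the split with other class I rows, which were not used here. It came to 4046 ± 122 CPM in knockout and 259 ± 13.4 CPM in parental cells (SD, n = 3 each), a log2 ratio of 3.97, or 3.54 when scaled by total count alone. Within this sum the make-up differed between the genotypes. HLA-B made up 57.7% ± 0.243 in knockout and 14.5% ± 0.0547 in parental cells (SD, n = 3 each). HLA-C made up 35.7% ± 0.243 in knockout and 62.2% ± 0.517 in parental cells, and HLA-E 6.30% ± 0.0728 in knockout and 23.1% ± 0.514 in parental cells. The shares did not overlap between the genotypes for these 3 genes. They are shares of estimated counts of the 5 genes, not of molecules at the surface.

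**Figure D2:**
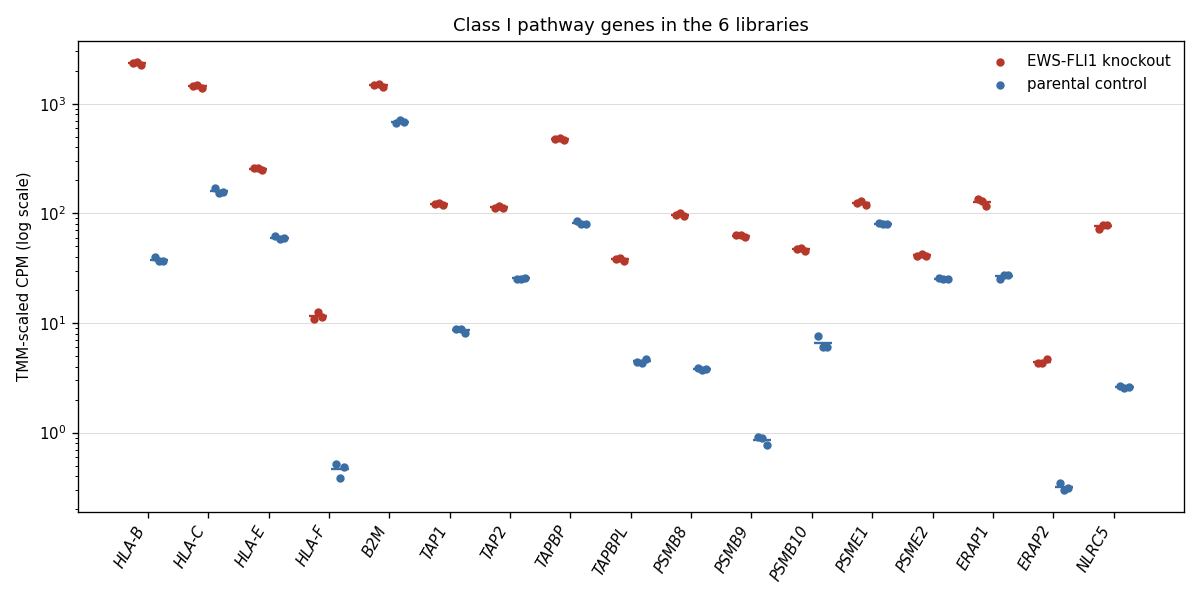
TMM-scaled CPM, on a log axis, of 17 class I pathway genes in the 3 knockout and 3 parental libraries; points are libraries and lines are means. In each gene all knockout points lie above all parental points, and the spread within a genotype is small beside the gap, least so for PSME1 and PSME2.

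The 4 transport and loading genes all rose. TAP1 and TAP2 encode the paired chains of the peptide transporter. TAP1 had 122, 124 and 118 CPM in the knockout libraries, against 8.75, 8.73 and 8.15 CPM in the parental libraries, and gave a log2 change of 3.83 (SE 0.055, adjusted p = 4.72e-24). TAP2 had 112, 118 and 112 CPM in the knockout libraries, against 25.3, 25.4 and 25.9 CPM in the parental libraries, with a log2 change of 2.16 (SE 0.049, adjusted p = 2.06e-20). The parental level was a smaller share of the knockout level for TAP1 than for TAP2, as the folds of 14.2 and 4.46 show. TAPBP, which encodes tapasin, the bridge between TAP and the empty class I molecule, had 472, 489 and 465 CPM in the knockout libraries, against 85.4, 79.3 and 79.8 CPM in the parental libraries. This was a log2 change of 2.54 (SE 0.051, adjusted p = 2.17e-21). TAPBPL encodes a tapasin relative that edits the bound peptide, and had 38.5, 39 and 36.5 CPM in the knockout libraries, against 4.43, 4.34 and 4.66 CPM in the parental libraries, with a log2 change of 3.08 (SE 0.058, adjusted p = 5.10e-22). None of the groups overlapped. Both enzymes that trim peptides in the endoplasmic reticulum rose as well. ERAP1 had 135, 130.0 and 117 CPM in the knockout libraries, against 25.3, 27.2 and 27.2 CPM in the parental libraries, and ERAP2 had 4.29, 4.31 and 4.65 CPM in the knockout libraries, against 0.348, 0.298 and 0.312 CPM in the parental libraries. Their log2 fold changes were 2.26 (SE 0.058) and 3.79 (SE 0.12), with adjusted p of 1.63e-19 and 5.04e-18.

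Among 10 listed chaperones and quality control factors of the endoplasmic reticulum, 9 rose and 1, the lectin chaperone CANX, did not pass the test (529 against 508 CPM in knockout and parental cells). With total count scaling 6 were higher and 3 lower. The named genes were HSPA5, the chaperone BiP, at 2.23, SEC61A1 of the translocation channel at 2.08, CALR (calreticulin) at 1.69, PDIA3, the oxidoreductase of the loading complex, at 1.43 and HM13, the signal peptide peptidase, at 1.17 on the log2 scale. Of 8 other peptidases, 3 rose and 3 fell, and 2 did not pass the test, while with total count scaling 3 were higher and 5 lower. NRDC fell to 208 CPM in knockout cells, against 1548 CPM in parental cells (log2 fold change -2.89), and BLMH also fell (-1.24). DPP9, LNPEP and LAP3 rose, with log2 fold changes of 1.63, 1.24 and 0.83. LNPEP trims endocytosed peptides for cross-presentation.

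Immunoproteasomes carry 3 catalytic subunits, PSMB8, PSMB9 and PSMB10, that replace PSMB5, PSMB6 and PSMB7 of the standard particle. PSMB8 had 96.8, 99.8 and 94.3 CPM in the knockout libraries, against 3.88, 3.69 and 3.81 CPM in the parental libraries. PSMB9 had 63.2, 63.8 and 60.8 CPM in the knockout libraries, against 0.914, 0.889 and 0.768 CPM in the parental libraries, its parental level lying below 1 CPM. PSMB10 had 46.8, 48.6 and 45.7 CPM in the knockout libraries, against 7.56, 6.01 and 6.01 CPM in the parental libraries. All 3 rose without overlap, by 25.6-fold, 73.1-fold and 7.21-fold. PSMB9 gave a log2 change of 6.19 (SE 0.072, adjusted p = 1.19e-25), the largest of the 37 genes. The PA28 activator subunits changed less. PSME1 had 123, 129 and 119 CPM in the knockout libraries, against 81.7, 79.7 and 79.6 CPM in the parental libraries, and PSME2 had 41, 42.8 and 40.4 CPM in the knockout libraries, against 25.8, 25.1 and 25.4 CPM in the parental libraries. Their log2 fold changes were 0.62 (SE 0.048) and 0.70 (SE 0.049), with adjusted p of 9.99e-11 and 1.90e-11. With total count scaling they were 0.20 and 0.28 and still passed the test. PSMB8-AS1 lies antisense to 20.6% of the exon bases of PSMB8 and to 9.5% of those of TAP1, and averaged 10.5 CPM in knockout and 0.178 CPM in parental cells. On the same strand, AC040162.1 covers 34.8% of the exon bases of PSMB10, and averaged 4.18 CPM in knockout and 1.99 CPM in parental cells. The labels state no strand, so reads of such pairs cannot be told apart where they overlap.

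Ratios within a library do not depend on scaling. The ratio of PSMB8 to PSMB5 counts was 0.647, 0.677 and 0.667 in the knockout libraries, against 0.0140, 0.0139 and 0.0146 in the parental libraries. For PSMB9 to PSMB6 it was 0.623, 0.642 and 0.648 in the knockout libraries, against 0.00358, 0.00371 and 0.00326 in the parental libraries. For PSMB10 to PSMB7 it was 0.285, 0.299 and 0.299 in the knockout libraries, against 0.0413, 0.0328 and 0.0342 in the parental libraries. Every knockout ratio was above every parental ratio. The mean log2 ratio was higher in the knockout by 5.55, 7.51 and 3.03, or 46.9-fold, 182-fold and 8.20-fold. A two-sided exact permutation test over libraries gave p = 0.1 for each, and 0.1 after adjustment over the 3 ratios, which is the smallest p that 3 against 3 libraries allow. Both sides of the ratios moved, since PSMB5, PSMB6 and PSMB7 fell by 0.87, 1.31 and 0.18 on the log2 scale. Of 18 standard proteasome genes, 6 rose, 8 fell and 4 did not pass the test, with 1 higher and 15 lower under total count scaling. Their sum was 2424 ± 67.6 CPM in knockout and 2639 ± 48.6 CPM in parental cells. PSMB3, a structural subunit, fell by 1.37, and PSMA1 and POMP rose by 0.71 and 0.45. With total count scaling POMP was at 0.02 and did not pass the test (edgeR adjusted p = 0.660).

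**Figure D3:**
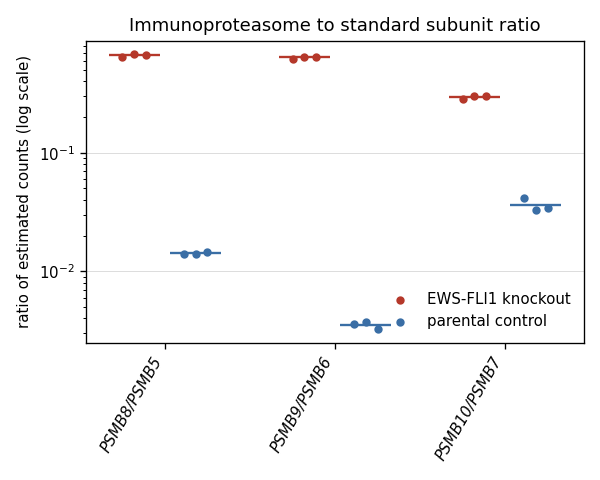
Ratio of estimated counts of each immunoproteasome subunit to the subunit it replaces, on a log axis, per library; lines are means of 3. The 3 knockout points of each pair lie above the 3 parental points, with mean ratios of 0.664 and 0.0142 for PSMB8 to PSMB5.

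NLRC5, the transactivator of class I genes, rose with them. It had 72.6, 78.8 and 79 CPM in the knockout libraries, against 2.65, 2.57 and 2.59 CPM in the parental libraries, without overlap and with a log2 change of 4.88 (SE 0.061, adjusted p = 3.67e-25). CIITA, its class II relative, stayed below 1 CPM, with 0.980, 0.936 and 0.907 CPM in the knockout libraries, against 0.698, 0.529 and 0.605 CPM in the parental libraries. Its log2 fold change of 0.62 passed the test (adjusted p = 0.000740), but with total count scaling it was 0.20 and did not (adjusted p = 0.202). DEXI lies antisense to 11.6% of the exon bases of CIITA. It averaged 28.96 CPM in knockout and 17.99 CPM in parental cells, a log2 fold change of 0.687. The part of DEXI reads in the CIITA values was not tested.

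Of 16 listed genes of MHC transcription and interferon signalling, 15 were tested, 9 were higher and 6 lower, or 7 and 8 with total count scaling. IRF1, a transcription factor of interferon responses, had 165, 179 and 172 CPM in the knockout libraries, against 4, 4.04 and 3.91 CPM in the parental libraries. SOCS1, the feedback inhibitor of JAK kinases, had 32.3, 34.4 and 35.2 CPM in the knockout libraries, against 0.444, 0.386 and 0.429 CPM in the parental libraries. Both were separated without overlap, with log2 fold changes of 5.43 and 6.34. The kinase JAK2 rose by 3.36 on the log2 scale, at 36.2 ± 1.94 CPM in knockout and 3.52 ± 0.175 CPM in parental cells (SD, n = 3 each), while JAK1 fell by 1.86. RFXAP, a subunit of the RFX complex on MHC promoters, fell by 2.14 on the log2 scale. RFX5, another subunit, was near equal, at 58.7 ± 1.68 CPM in knockout and 54.6 ± 0.257 CPM in parental cells; its log2 fold change of 0.11 (adjusted p = 0.0489) turned to -0.32 with total count and -0.10 with upper quartile scaling.

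Class II genes, which present peptides to CD4 T cells and are active mainly in professional antigen presenting cells, were at the low end of detection in both genotypes. All 11 stayed below 1 CPM in every library, and their sum was 2.47 ± 0.797 CPM in knockout and 2.01 ± 0.0264 CPM in parental cells (SD, n = 3 each). The knockout libraries had sums of 2.39, 1.71 and 3.30 CPM, against 1.99, 2.04 and 2 CPM in the parental libraries, and they lay on both sides of the parental ones. Of the 10 tested, 3 were higher, 4 lower and 3 did not pass the test, against 36.3% higher and 37.5% lower over all tested genes. CD74, the invariant chain, had estimated counts of 203, 17 and 239 in the knockout libraries, against 77.6, 104 and 81.3 in the parental libraries. The second knockout library was far below the other two, and the log2 fold change of 1.34 had an SE of 0.92 (edgeR adjusted p = 0.255). Without that library it was 1.88 (adjusted p = 6.57e-08). HLA-DRA, the DR alpha chain, was not tested, with counts of 8, 0 and 55 in the knockout libraries, against 5, 1 and 1 in the parental libraries. The second knockout library was again the lowest of its group. In HLA-DRB1, the DR beta chain, the groups overlapped, with counts of 11, 2.80 and 25.5 in the knockout libraries, against 32, 19 and 30 in the parental libraries and a log2 fold change of -0.51 (adjusted p = 0.369). Without the third knockout library it was -1.33 (adjusted p = 0.0522), and without the second -0.043 (adjusted p = 0.936). Reads may be split among HLA-DRB rows, and summing 5 of them gave -0.055 (edgeR adjusted p = 0.930).

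The DP chains HLA-DPA1 and HLA-DPB1 rose, with log2 fold changes of 1.97 (SE 0.49) and 1.35 (SE 0.45) on 13 to 32 counts per knockout library and 4 to 10 per parental library. The call of HLA-DPB1 was lost without the third knockout library (adjusted p = 0.0516) and with total count scaling (adjusted p = 0.0541). The DQ chains fell. HLA-DQA1 had counts of 18.1, 31 and 53.3 in the knockout libraries, against 83, 111 and 108 in the parental libraries, a log2 fold change of -1.02 (adjusted p = 0.00354). HLA-DQB1 had 2 counts over the 3 knockout libraries and 68 over the parental ones. Relative to library size this was a ratio of 0.0431, with a 95% exact counting interval of 0.00511 to 0.162. Both knockout counts were in the first library. Reads may be split among HLA-DQB rows, which the interval does not cover. Summing 3 such rows gave a log2 fold change of -2.61 (edgeR adjusted p = 0.000187), against -4.34 for HLA-DQB1 alone. HLA-DOA, the inhibitor of peptide exchange, fell by 1.83 on the log2 scale, with counts of 30.3, 8.28 and 40.7 in the knockout libraries, against 143, 127 and 141 in the parental libraries. HLA-DMB, a chain of the exchange factor, had between 3 and 9 counts in knockout and between 18.2 and 21 in parental libraries. Its log2 fold change of -1.36 (adjusted p = 0.0216) was lost when any library but the third knockout library was left out (adjusted p between 0.06 and 0.0983), and with DESeq2 (adjusted p = 0.0948). Without the third knockout library it was -2.03. HLA-DMA, its partner chain, had 0.614 ± 0.0748 CPM in knockout and 0.527 ± 0.00245 CPM in parental cells and did not pass the test (adjusted p = 0.213). HLA-DOB rose to 0.767 CPM in knockout cells, against 0.414 CPM in parental cells (log2 fold change 0.89), but the readthrough gene AL669918.1 covers 29.7% of its exon bases on the same strand, and 32.3% of those of TAP2. AL669918.1 averaged 12.0 CPM in knockout and 5.88 CPM in parental cells, a log2 fold change of 1.02.

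Markers of cells that carry class II were set beside these values. The sum of 14 blood cell markers was 2.28 to 2.85 CPM in the knockout and 12.8 to 15.3 CPM in the parental libraries. Of the 7 tested, 2 were higher, 2 lower and 3 did not pass the test. The B cell gene CD79A made up most of the parental sum (0.265 CPM in knockout and 13 CPM in parental cells), and MS4A1 and FCER1A were at 0 in all 6 libraries. PTPRC, the pan-leukocyte marker, averaged 1.5 CPM in knockout and 0.127 CPM in parental cells. The sum of 4 endothelial markers was 50.4 to 56 CPM in the knockout and 0.474 to 0.553 CPM in the parental libraries, carried by TEK and PECAM1 (log2 fold changes 8.02 and 5.77); VWF also rose and CDH5 did not pass the test. The part of such cells in the class II values was not tested.

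Of 9 genes that process antigen for class II in endosomes, 5 rose and 2 fell, with 5 higher and 4 lower under total count scaling. IFI30, the thiol reductase that opens disulphide bonds, rose by 4.80 on the log2 scale (SE 0.29), and CTSS, the cathepsin that removes the invariant chain, by 4.58, at 18.5 ± 0.542 CPM in knockout and 0.777 ± 0.0700 CPM in parental cells. CTSB and CTSD rose by 2.62 and 2.49. CTSV, a thymic cathepsin, fell by 3.80. Of 8 genes of MHC turnover, 6 were higher and 2 lower, or 3 and 3 with total count scaling. MARCHF4, a ubiquitin ligase that can remove class I from the surface, rose by 4.87. MARCHF8 and MARCHF9 went opposite ways, with log2 fold changes of 0.47 and -0.56. With total count scaling MARCHF8 was at 0.05 and did not pass the test (edgeR adjusted p = 0.316). SUSD6 and TMEM127, which act together in the degradation of class I, rose by 3.37 and 1.19, with SUSD6 at 123 ± 2.73 CPM in knockout and 11.9 ± 0.256 CPM in parental cells (SD, n = 3 each).

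The 2 class I-like molecules with other cargo moved in opposite directions. MR1, which shows vitamin B metabolites to mucosal-associated invariant T cells, had 13.8, 13.5 and 13 CPM in the knockout libraries, against 4.60, 5.06 and 5.04 CPM in the parental libraries. It rose with a log2 change of 1.45 (SE 0.064, adjusted p = 4.11e-15). CD1D, which presents lipids to natural killer T cells, fell within the range below 1 CPM, to 0.631 ± 0.0131 CPM in knockout cells, against 0.868 ± 0.0495 CPM in parental cells (log2 fold change -0.46, adjusted p = 0.00616).

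The 6 NKG2D ligand genes did not move together: 3 rose, 2 fell and 1 did not pass the test. Over all tested genes, 36.3% were higher and 37.5% lower. MICA and MICB are encoded within the MHC. MICA had 60.4, 64.2 and 62.7 CPM in the knockout libraries, against 12.5, 12.8 and 12.7 CPM in the parental libraries, with a log2 change of 2.30 (SE 0.051, adjusted p = 1.37e-20). MICB had 25.3, 26.6 and 24.2 CPM in the knockout libraries, against 0.490, 0.430 and 0.475 CPM in the parental libraries, and its parental level was below 1 CPM. It rose 54.4-fold, with a log2 change of 5.77 (SE 0.078, adjusted p = 1.71e-24). The ULBP family lies on the other arm of chromosome 6. ULBP1 had 2.87, 2.85 and 2.74 CPM in the knockout libraries, against 35.2, 37.3 and 37.7 CPM in the parental libraries. Its level fell in every knockout library to a ratio of 0.0768, with a log2 change of -3.70 (SE 0.060, adjusted p = 4.23e-23). ULBP2 had 3.13, 3.08 and 3.15 CPM in the knockout libraries, against 3.48, 3.52 and 3.31 CPM in the parental libraries, and ULBP3 had 3.42, 3.42 and 3.17 CPM in the knockout libraries, against 4.61, 4.29 and 4.29 CPM in the parental libraries. For ULBP2 the log2 fold change of -0.14 did not pass the test (adjusted p = 0.138), but it did with total count (-0.57) and upper quartile scaling (-0.35). ULBP3 gave a log2 change of -0.40 (SE 0.083, adjusted p = 0.000187). RAET1G had 1.41, 1.76 and 1.44 CPM in the knockout libraries, against 0.174, 0.133 and 0.163 CPM in the parental libraries, and gave a log2 change of 3.29 (SE 0.17, adjusted p = 7.07e-14).

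The summed level of the 6 ligands was 98.6 ± 2.88 CPM in knockout and 57.8 ± 1.22 CPM in parental cells (SD, n = 3 each), a ratio of 1.70 with TMM factors. The ratio depends on scaling, and the sum was not run with total count scaling. That scaling lowered the log2 fold change of MICA to 1.88 and of ULBP1 to -4.13. The make-up of the sum differed as well, without overlap between the genotypes. Its shares are of estimated counts not divided by transcript length, so each is compared only between genotypes. MICA made up 63.3% ± 0.940 in knockout and 21.9% ± 0.237 in parental cells. MICB made up 25.7% ± 0.758 in knockout and 0.805% ± 0.0668 in parental cells. ULBP1 made up 2.86% ± 0.0987 in knockout and 63.5% ± 0.973 in parental cells. ULBP genes are related in sequence, so reads may be split among them. Summing ULBP1, ULBP2, ULBP3 and their RAET1 relatives gave a log2 fold change of -1.98, to which ULBP1 contributed most counts in the parental cells.

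**Figure D4:**
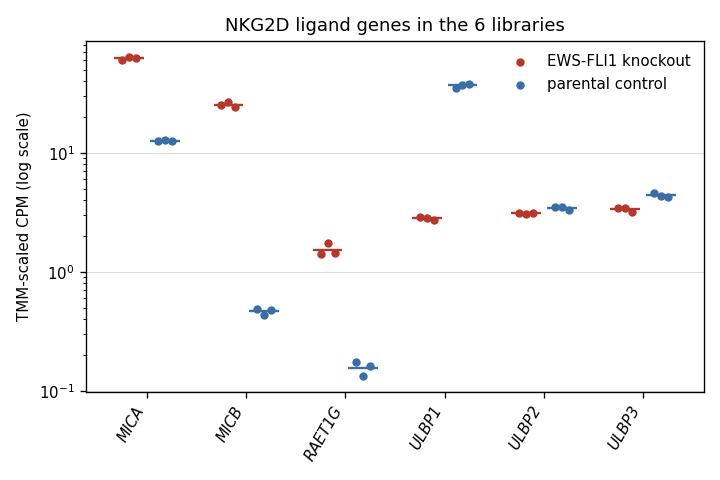
TMM-scaled CPM, on a log axis, of the 6 NKG2D ligand genes in the 3 knockout and 3 parental libraries; points are libraries and lines are means. MICA, MICB and RAET1G lie higher in the knockout, ULBP1 lies far lower, and the ULBP2 and ULBP3 groups are close.

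A further list of 19 genes held ligands of NK or T cell receptors and also death receptors, and 16 of them were tested. Of these, 13 rose, 2 fell and 1 did not pass the test (12 higher and 3 lower with total count scaling). The shares over all tested genes were 36.3% higher and 37.5% lower. The adhesion molecules VCAM1 and ICAM1 rose by 6.99 and 6.49 on the log2 scale. ICAM1, the ligand of LFA-1 in the immune synapse, measured 94.5 ± 2.70 CPM in knockout and 1.05 ± 0.0332 CPM in parental cells. CADM1, a ligand of CRTAM, rose by 3.81, NCR3LG1 (B7-H6), a ligand of the NK receptor NKp30, by 2.16, and NECTIN1 by 1.78. The 2 that fell were death receptors, FAS at 35.7 against 65.5 CPM and TNFRSF10B at 169.6 against 222 CPM in knockout and parental cells. TNFRSF10A, another death receptor, rose, at 6.83 against 2.22 CPM. Of 5 proteases known to shed ligands such as MICA, 4 rose and 1 fell. MMP14, ADAM9, ADAM17 and ADAM10 rose by 3.19, 2.91, 1.34 and 0.70, and MMP9 fell at levels below 1 CPM.

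Of the 38 genes, 21 lie in the MHC interval of chromosome 6 that runs from HLA-F to HLA-DPB1 (chr6:29722775-33087201, GENCODE annotation of GRCh38). Of these, 20 were tested, 14 were higher and 4 lower, with a median log2 fold change of 2.05. The 17 genes outside the interval gave 12 higher and 3 lower, with a median of 1.34. Among 95 other tested protein-coding genes within the interval, 48 were higher (50.5%) and 28 lower, with a median of 0.19. Over all 16610 tested protein-coding genes, 42.9% were higher and 40.6% lower, with a median of 0.02. TAP1, PSMB8 and PSMB9, which lie side by side in the class II region, all rose, while HLA-DQA1, HLA-DQB1 and HLA-DOA of that region fell.

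**Figure D5:**
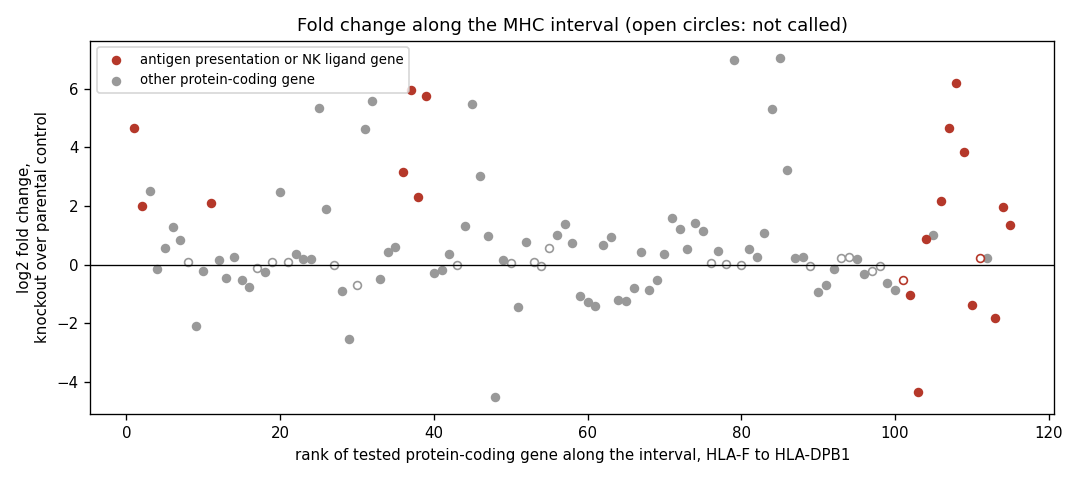
Log2 fold change of tested protein-coding genes in their order along the MHC interval; red points are the antigen presentation and NK ligand genes, grey points the other genes, open circles did not pass the test. The red points above 4 are HLA-F, HLA-B, MICB, PSMB8 and PSMB9, and grey points above 4 lie between them.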

How the data were processed

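The data are gene-level estimated counts that the authors deposited for 62700 gene rows and 6 libraries. kallisto 0.48.0 and hg38 are named in the submitters' processing notes. The sources used here do not give the annotation, any filter or the step that joined transcripts into genes. Per the labels' protocols, mRNA was captured on oligo-dT beads and read on an Illumina NovaSeq.

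After rounding, these values were fitted by edgeR 4.0.16 in R 4.3.3 (filterByExpr with minimum count 10 and minimum total 15, TMM factors, robust quasi-likelihood test, genotype as the only term, all 6 libraries). P-values are two-sided and were adjusted by Benjamini-Hochberg across every tested gene, with a threshold of 0.05. An SE is the size of the log2 fold change divided by the square root of F. The biological coefficient of variation was 7.53%, and 3 counts corresponded to between 0.00752 and 0.0117 CPM. Intervals and this floor cover counting error only. The steps were tested on simulated data in which few genes changed, as many up as down. That setting does not check the scaling of libraries where most genes are called. Within a genotype, chi-square per degree of freedom between libraries lay between 11.1 and 78.1 over genes that reached 100 counts in the pair. This is more than counting error alone gives. The values are estimated counts, and error from splitting reads among similar transcripts is part of this spread.

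The 38 genes and the other gene lists were chosen with earlier results of these data known. Values of each library are given for genes with a mean of at least 1 CPM in either genotype. From each other list, up to 5 called genes with at least 5 CPM and the largest changes are named, plus PSMB5, PSMB6, PSMB7, IRF1 and RFX5 (1 more gene named by this rule is not reported here); CANX, CD99, AZGP1, CD1A, CD1B, CD1C, CD1E, PTPRC, MS4A1, FCER1A, VWF, CDH5, FAS, TNFRSF10A, TNFRSF10B and MMP9 were named after their values were seen. Alternatives covered scaling, filters, unrounded counts, DESeq2 1.42.0, limma-voom (limma 3.58.1), a term for the replicate number, summed gene families and leaving out each library.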

Additional observations from a re-analysis of the deposited data

How the results depend on the processing

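Of the 37 tested genes, 30 kept their direction and their side of the threshold under every alternative run for them, and 7 did not (CIITA, CD74, HLA-DPB1, HLA-DMA, HLA-DMB, ULBP2 and RAET1G). Among them 26 were called higher and 7 lower. With total count scaling 24 and 8 were called, with upper quartile scaling 26 and 8, and with the DESeq2 Wald test 26 and 6. A minimum count of 100 left 30 of them tested and 4 called lower. Leaving out each library gave 25 to 27 called higher, 6 to 7 called lower and 20190 to 21414 called over the whole table, against 21015. With total count scaling the log2 ratio of the class I heavy chain sum was 3.54, HLA-DMA turned to -0.20, HFE to -0.093 and RFX5 to -0.32; RFX5 was -0.098 with upper quartile scaling. The row of RAET1G turned to -1.98 when it was summed with the ULBP genes, which hold most of the counts. The genotypes share replicate numbers. Deviations of same-numbered libraries correlated at -0.161, -0.0609 and 0.0329, and those of differently numbered libraries at -0.132 to 0.159. With deviations taken from means of 3 libraries, these values cannot tell whether the numbers pair the libraries. With a replicate block, 20418 genes were called, and the 37 genes gave 26 higher and 7 lower. The cause of these differences was not tested. Genes with few counts, most class II genes and HLA-G among them, have the widest errors. The labels do not state strand, so overlapping genes are uncertain.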

Other observations

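Other MHC-like molecules were measured in the same libraries. Of 8 listed, 4 were tested, and CD1A, CD1B, CD1C and CD1E were left out by the filter on low counts. PROCR, the endothelial protein C receptor, a CD1-like molecule, measured 12.8 ± 0.663 CPM in knockout and 0.904 ± 0.0772 CPM in parental cells (SD, n = 3 each), a log2 fold change of 3.82. FCGRT, the heavy chain of the neonatal Fc receptor, which pairs with beta-2-microglobulin, fell to 65.5 ± 2.89 CPM in knockout cells, against 146 ± 9.09 CPM in parental cells, a log2 fold change of -1.15. AZGP1, a secreted class I-like protein, fell to 0.00776 CPM in knockout cells, which is below the floor of 3 counts, against 1.08 CPM in parental cells. HFE, the iron-sensing class I-like molecule, measured 19.7 ± 0.422 CPM in knockout and 15.7 ± 0.0804 CPM in parental cells, and its direction turned with total count scaling.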
